A study of Mus musculus with 14 samples.

Results

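Fgf5, Otx2, Pou3f1, Sall2, Zic1, Zic2 and Zic5 are genes of the primed epiblast: 1 secreted growth factor and 6 transcription factors. They were followed here across culture media given to mouse embryonic stem cells (ESCs). The 7 genes were taken by name from the 37991 genes of the deposited files, and all 7 were among the 16033 genes with enough counts to be tested. The cells were C57BL/6 ESCs carrying 2 microRNA reporters, mCherry for the mir-290 cluster and eGFP for the mir-302 cluster.

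In experiment B, sparsely plated cells spent 5 days in 1 of 5 media, with 2 libraries per medium. F/A cells grew in serum-free N2B27 that held bFGF (12 ng/ml) and activin A (20 ng/ml), a pair of factors used to derive epiblast stem cells. L-Pro/LIF cells received L-proline, at a dose the labels do not give for these samples, in serum with leukemia inhibitory factor (LIF). VitC/LIF cells received vitamin C at 500 µM. 2i/LIF cells received 2i, the name for inhibitors of the kinases MEK and GSK3, in a base medium that the labels used here do not give. FBS/LIF cells, in serum and LIF with no addition, were the common control. Of the 5 media, only F/A is not named with LIF. In experiment A, cells positive for both reporters gave 1 library each after 5 days with L-proline at 1 mM in serum and LIF (L-Pro day 5), after 3 or 5 days in N2B27 containing bFGF and 20 ng/ml of activin A (called F/A day 3 and F/A day 5), and untreated (day 0), where the culture medium was serum plus LIF and 100 µM vitamin C.

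The epiblast of the mouse embryo gives rise to the body. Before implantation its cells are naive. After implantation they become primed: they depend on FGF and activin signals, switch off naive factors such as Esrrb and Klf4 and switch on a new set of regulators. FGF acts through receptors and the MEK and ERK kinases, the step that 2i blocks. Fgf5 is the marker gene most often used for the primed epiblast, Otx2 and Pou3f1 are regulators that act early in the exit from the naive state, and the Zic factors bind enhancers in ESCs and epiblast. All 6 transcription factors have further roles in the nervous system.

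Levels are given in CPM, the count of a gene relative to the library's total, after scaling by the trimmed mean of M-values (TMM), and differences as log2 fold changes from edgeR's quasi-likelihood test across all 10 libraries of experiment B, with a standard error (SE) and a p adjusted over all genes tested. A difference was called when that p was below 0.05. Since no label states that libraries in the same medium were separate cultures, p measures the spread between these samples, which may be technical. In bulk RNA a lower level can mean fewer cells with the transcript or less transcript per cell, and these cannot be told apart. In experiment B, F/A replicate 1 had 6937945 mapped fragments and the other 9 libraries 17778399 to 26354444 each, and the libraries of experiment A held 33162689 to 39711061 counts. Pou5f1, the core pluripotency factor, averaged 485 ± 97.9 CPM in F/A and 563 ± 32.6 CPM in L-Pro/LIF, against 882 ± 90.6 CPM in FBS/LIF (SD, n = 2), and fell in both (log2 fold changes -0.86, adjusted p = 0.00375, and -0.65, adjusted p = 0.0227). Over FBS/LIF, 24.4% of all genes tested were called higher and 22% lower in F/A, and 13.7% and 10.3% in L-Pro/LIF. Of 6 markers of pluripotent cells, none at 0 in any medium, 1 rose and 4 fell in F/A over FBS/LIF (median -1.08). In L-Pro/LIF over FBS/LIF 0 rose and 4 fell (median -0.64). Sox2, a partner of Pou5f1 that neural cells also express, fell furthest, to 60.6 ± 18.8 CPM in F/A against 665 ± 5.17 CPM in FBS/LIF (SD, n = 2; -3.45, adjusted p = 7.26e-06).

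Fgf5 encodes a secreted fibroblast growth factor and lies at chr5:98254184-98277030 on the plus strand (GENCODE, build GRCm38). The region around its start, shown because Fgf5 had the largest log2 fold changes of the 7 genes in F/A and in L-Pro/LIF over FBS/LIF, is dense in CpG dinucleotides, which are in capitals. The 300 bases run from 250 before to 50 after the start (RefSeq, GRCm38.p6, chr5:98253934-98254233).
Fgf5: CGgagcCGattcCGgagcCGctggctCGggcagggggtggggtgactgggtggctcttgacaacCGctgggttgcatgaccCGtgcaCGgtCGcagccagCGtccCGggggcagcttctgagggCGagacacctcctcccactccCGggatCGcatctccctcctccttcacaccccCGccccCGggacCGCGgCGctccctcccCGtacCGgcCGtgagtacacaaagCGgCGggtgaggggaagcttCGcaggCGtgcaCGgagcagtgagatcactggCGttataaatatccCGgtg
The window holds 29 CpG, a number that 12.9% of 32851 mouse promoter windows reach, and the median window has 7. It contains a GC box (GGGCGG on either strand, present in 35.7% of windows) and TATAAA (in 13.6%), which lies inside the transcribed part, and these motifs do not overlap.

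Fgf5 was close to silent in 3 media and abundant in the other two. F/A libraries had 81.2 and 63.1 CPM, L-Pro/LIF libraries 35.7 and 38.8 CPM, VitC/LIF libraries 0.552 and 0.810 CPM, 2i/LIF libraries 0 and 0 CPM, and FBS/LIF libraries 1.62 and 2.58 CPM. Neither 2i/LIF library held a single Fgf5 count, and no group overlapped another. Fgf5 rose by a log2 fold change of 5.10 (SE 0.263, adjusted p = 8.58e-06) in F/A over FBS/LIF and by 4.15 (SE 0.255, adjusted p = 4.9e-05) in L-Pro/LIF over FBS/LIF. Against a floor of 3 counts over the group, 2i/LIF was at least 25.6-fold lower than FBS/LIF (adjusted p = 0.00015), a bound that covers counting error only. Even F/A and L-Pro/LIF, the media where Fgf5 is high, differed: F/A was higher by 0.95 (SE 0.213, adjusted p = 0.0217), although that call was lost when F/A replicate 1 or either L-Pro/LIF library was left out, with adjusted p from 0.0171 to 0.145 as single libraries were left out. Fgf5 in VitC/LIF lay below FBS/LIF by 1.62 on the log2 scale without passing the threshold (adjusted p = 0.0881).

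Otx2 encodes an orthodenticle homeobox factor that works at enhancers opened on exit from the naive state. The gene lies at chr14:48657677-48673819 on the minus strand (GRCm38), where it overlaps the antisense transcript Otx2os1 and the unclassified transcript Gm49154. The labels do not state whether counting used strand, so reads of the bases shared with Otx2os1 cannot be told apart. Gm49154 lies on the same strand as Otx2, so a strand setting would not separate its reads. Neither partner is among the genes of experiment B, where unique hits of Otx2 came to 98% of its estimated counts. RefSeq gives 4 start windows, with 6, 8, 16 and 11 CpG in order along the gene. The third is shown because, of the 9 windows found for 5 of the 7 genes, only this one holds TAATCC, the core letters bound by OTX proteins, which occur on either strand in 7.06% of all windows (chr14:48665060-48665359).
Otx2: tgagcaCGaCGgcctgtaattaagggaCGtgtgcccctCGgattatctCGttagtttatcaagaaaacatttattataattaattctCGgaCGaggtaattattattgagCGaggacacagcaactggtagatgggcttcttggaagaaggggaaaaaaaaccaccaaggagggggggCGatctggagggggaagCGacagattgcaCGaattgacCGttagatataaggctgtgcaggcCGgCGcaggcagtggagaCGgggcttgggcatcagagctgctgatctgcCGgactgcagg

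Otx2 fell steeply in 2i/LIF and was already well expressed in plain serum. Its level was 44.5 and 54.9 CPM in F/A, 52.2 and 46.3 CPM in L-Pro/LIF, 24.1 and 20.6 CPM in VitC/LIF, 2.23 and 2.24 CPM in 2i/LIF, and 19.7 and 20.1 CPM in FBS/LIF. The libraries thus form 3 tiers: F/A and L-Pro/LIF overlap at the top, VitC/LIF and FBS/LIF lie close together below them, and 2i/LIF stands alone. Otx2 rose by 1.32 in F/A over FBS/LIF (SE 0.142, adjusted p = 0.000171) and by 1.31 in L-Pro/LIF over FBS/LIF (SE 0.141, adjusted p = 0.000364), and it fell by 3.15 in 2i/LIF over FBS/LIF (SE 0.164, adjusted p = 5.83e-06). Between F/A and L-Pro/LIF the log2 fold change was 0.02 (SE 0.138, adjusted p = 0.943), with a sign that depended on the filter for low counts and on single libraries, from -0.24 without F/A replicate 2 to 0.15 without F/A replicate 1.

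Pou3f1 encodes a POU-domain factor also known as Oct6, and lies at chr4:124656807-124660655 on the plus strand (GRCm38), next to an antisense transcript, Gm2164, that overlaps 363 of its bases. Its values need a caution that the other genes do not. Only 1.70% of its estimated counts in experiment B came from fragments that hit no other annotated gene, against at least 87.7% for each of the other 6 genes, so its level rests on how the authors' software shared out ambiguous fragments. In experiment A, Pou3f1 was listed with 0 counts in all 4 libraries. Whether the counting there left out ambiguous reads is not given in the sources used here, so no limit on its level is drawn from these zeros.

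As estimated, Pou3f1 was highest in L-Pro/LIF and nearly absent in 2i/LIF. The libraries had 74.8 and 94.7 CPM in F/A, 116 and 120.1 CPM in L-Pro/LIF, 29.6 and 34.5 CPM in VitC/LIF, 1.01 and 1.91 CPM in 2i/LIF, and 56.5 and 57.5 CPM in FBS/LIF, with no overlap between media. It rose by 1.05 in L-Pro/LIF over FBS/LIF (SE 0.204, adjusted p = 0.00679) and by 0.57 in F/A over FBS/LIF (SE 0.203, adjusted p = 0.0458), and fell by 5.29 in 2i/LIF over FBS/LIF (SE 0.263, adjusted p = 5.03e-06). On the few fragments unique to the gene only the 2i/LIF result kept its call among these 3, at a log2 fold change of -7.61 (adjusted p = 0.000242), while L-Pro/LIF over FBS/LIF was 0.30 (adjusted p = 0.596) and F/A over FBS/LIF 0.50 (adjusted p = 0.307). The F/A call was also lost when either FBS/LIF library or F/A replicate 2 was left out (adjusted p from 0.0344 to 0.298), and the L-Pro/LIF call without FBS/LIF replicate 1 (from 0.0396 to 0.051).

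Sall2 encodes a zinc finger factor of the spalt family and lies at chr14:52311172-52328762 on the minus strand (GRCm38), with no overlapping gene. RefSeq gives start windows of contrasting make-up: the upstream one has 1 CpG and a GC content of 30.3%, the downstream one 10 CpG and 65%. The downstream window (chr14:52316274-52316573) is shown for comparison with the CpG-dense windows of Fgf5 and Zic1.
Sall2: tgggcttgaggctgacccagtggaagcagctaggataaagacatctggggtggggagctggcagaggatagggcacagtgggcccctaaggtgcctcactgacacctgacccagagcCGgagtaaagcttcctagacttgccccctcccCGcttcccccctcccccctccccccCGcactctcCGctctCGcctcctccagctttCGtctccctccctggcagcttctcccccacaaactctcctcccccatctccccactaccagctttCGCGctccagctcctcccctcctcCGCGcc

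Sall2 rose in L-Pro/LIF and F/A and fell in 2i/LIF, all over FBS/LIF. It had 52.8 and 61.4 CPM in F/A, 77.2 and 73.4 CPM in L-Pro/LIF, 12.6 and 14.2 CPM in VitC/LIF, 8.05 and 8.58 CPM in 2i/LIF, and 23.4 and 26.1 CPM in FBS/LIF. The 5 media did not overlap, and L-Pro/LIF libraries were the highest. Sall2 rose by 1.60 in L-Pro/LIF over FBS/LIF (SE 0.126, adjusted p = 7.61e-05) and by 1.21 in F/A over FBS/LIF (SE 0.126, adjusted p = 0.000146). It fell by 1.57 in 2i/LIF over FBS/LIF (SE 0.131, adjusted p = 5.45e-05). In VitC/LIF it fell by 0.89 against FBS/LIF (SE 0.128, adjusted p = 0.027). This call was lost whenever any 1 of the 4 libraries was left out, as were most calls over all genes in this comparison. The log2 fold change of Sall2 stayed between -0.97 and -0.80 over these omissions. F/A lay below L-Pro/LIF by 0.40 on the log2 scale, just short of the threshold (SE 0.123, adjusted p = 0.0503), and without F/A replicate 2 the difference was called (-0.61, adjusted p = 0.0101, in a range of 0.0101 to 0.224 over single libraries left out).

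The Zic genes encode zinc finger factors of 1 family. Zic2 (chr14:122475435-122479852, plus strand) and Zic5 (chr14:122456795-122465677, minus strand) are neighbours in GRCm38, transcribed away from each other with 9757 bases between them. Zic1 (chr9:91358058-91365810, minus strand) overlaps 3398 bases of Zic4 on the opposite strand, so without a stated strand setting reads of the shared bases cannot be told apart. In experiment B, unique hits of Zic1 came to 87.7% of its estimated counts. RefSeq start windows of Zic1 (chr9:91365719-91366018) and Zic5 (chr14:122465609-122465908) are shown because the 2 genes share a factor family and an F/A response but differ in CpG content, 31 against 15.
Zic1: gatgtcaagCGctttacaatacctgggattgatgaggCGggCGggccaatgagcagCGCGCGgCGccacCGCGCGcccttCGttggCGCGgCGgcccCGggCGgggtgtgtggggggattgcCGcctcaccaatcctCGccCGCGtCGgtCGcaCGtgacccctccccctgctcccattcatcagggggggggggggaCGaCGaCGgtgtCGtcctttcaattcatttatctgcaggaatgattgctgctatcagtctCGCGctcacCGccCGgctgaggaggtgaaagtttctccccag
Zic5: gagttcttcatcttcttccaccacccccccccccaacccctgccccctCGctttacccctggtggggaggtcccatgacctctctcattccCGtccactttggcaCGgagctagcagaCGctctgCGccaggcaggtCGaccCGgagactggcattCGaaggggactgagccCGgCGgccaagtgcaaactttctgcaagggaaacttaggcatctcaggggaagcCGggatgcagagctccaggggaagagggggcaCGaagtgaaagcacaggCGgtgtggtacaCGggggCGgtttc
Both hold the GC box, Zic1 at 3 places and Zic5 at 1, and Zic1 also holds CCAAT, a motif of 37.4% of windows. Neither CAGCAGG, a short form of the ZIC motif (10.5% of windows), nor ATGCAAAT, the POU octamer (1.74%), was found on either strand in the windows of Fgf5, Otx2, Sall2, Zic1 or Zic5, and no motif match overlapped another. These matches describe letters in a window and nothing about binding.

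Zic2 rose in F/A and in L-Pro/LIF. Libraries had 77.2 and 65.3 CPM in F/A, 52.9 and 51.3 CPM in L-Pro/LIF, 8.17 and 9.72 CPM in VitC/LIF, 10.9 and 14.7 CPM in 2i/LIF, and 17.0 and 16.8 CPM in FBS/LIF, with no overlap between media and VitC/LIF libraries the lowest. It rose by 2.07 in F/A over FBS/LIF (SE 0.167, adjusted p = 3.62e-05) and by 1.62 in L-Pro/LIF over FBS/LIF (SE 0.165, adjusted p = 0.000261). Its log2 fold changes of -0.92 in VitC/LIF over FBS/LIF (SE 0.168, adjusted p = 0.0623), -0.40 in 2i/LIF over FBS/LIF (SE 0.165, adjusted p = 0.105) and -0.52 in VitC/LIF over 2i/LIF (SE 0.17, adjusted p = 0.0555) did not pass. Without 2i/LIF replicate 2 the fall in 2i/LIF was called (-0.63, adjusted p = 0.0454, in a range to 0.517), and without 2i/LIF replicate 1 so was VitC/LIF over 2i/LIF (-0.72, adjusted p = 0.0332, in a range to 0.354).

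Zic5 also rose in F/A and L-Pro/LIF, and no fall in 2i/LIF was called. Its level was 73.9 and 45.2 CPM in F/A, 23.6 and 25.5 CPM in L-Pro/LIF, 8.83 and 7.92 CPM in VitC/LIF, 5.72 and 8.91 CPM in 2i/LIF, and 7.67 and 12.1 CPM in FBS/LIF. The VitC/LIF, 2i/LIF and FBS/LIF libraries overlap, while F/A and L-Pro/LIF libraries lie above them and apart from each other. Zic5 rose by 2.59 in F/A over FBS/LIF (SE 0.31, adjusted p = 0.000316) and by 1.31 in L-Pro/LIF over FBS/LIF (SE 0.3, adjusted p = 0.014), whereas 2i/LIF over FBS/LIF was -0.43 (SE 0.308, adjusted p = 0.341). The L-Pro/LIF call was lost without L-Pro/LIF replicate 2 and without FBS/LIF replicate 1 (adjusted p from 0.0195 to 0.0968).

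Zic1 was the rarest of the genes. F/A libraries had 4.19 and 5.85 CPM, L-Pro/LIF libraries 1.19 and 1.38 CPM, VitC/LIF libraries 0.0552 and 0.289 CPM, 2i/LIF libraries 0 and 0.0561 CPM, and FBS/LIF libraries 0.601 and 0.609 CPM. Only VitC/LIF and 2i/LIF overlapped. Zic1 rose by 3.05 in F/A over FBS/LIF (SE 0.542, adjusted p = 0.00247), while its log2 fold change of 1.08 in L-Pro/LIF over FBS/LIF did not pass (SE 0.536, adjusted p = 0.185). On unique hits that difference was called (1.40, adjusted p = 0.0383, in a range of 0.0383 to 0.418 over its alternatives). In 2i/LIF a single count stood against 26 in FBS/LIF, a ratio of 0.0450 with a 95% counting interval from 0.00110 to 0.274 (adjusted p = 0.00841). That call was lost without 2i/LIF replicate 1 (adjusted p from 0.0207 to 0.0598) and in limma fits on FPKM (adjusted p from 0.526 to 0.968), where the estimated transcript length of Zic1, between 189 and 5405 bases across libraries, enters the value.

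**Figure D1:**
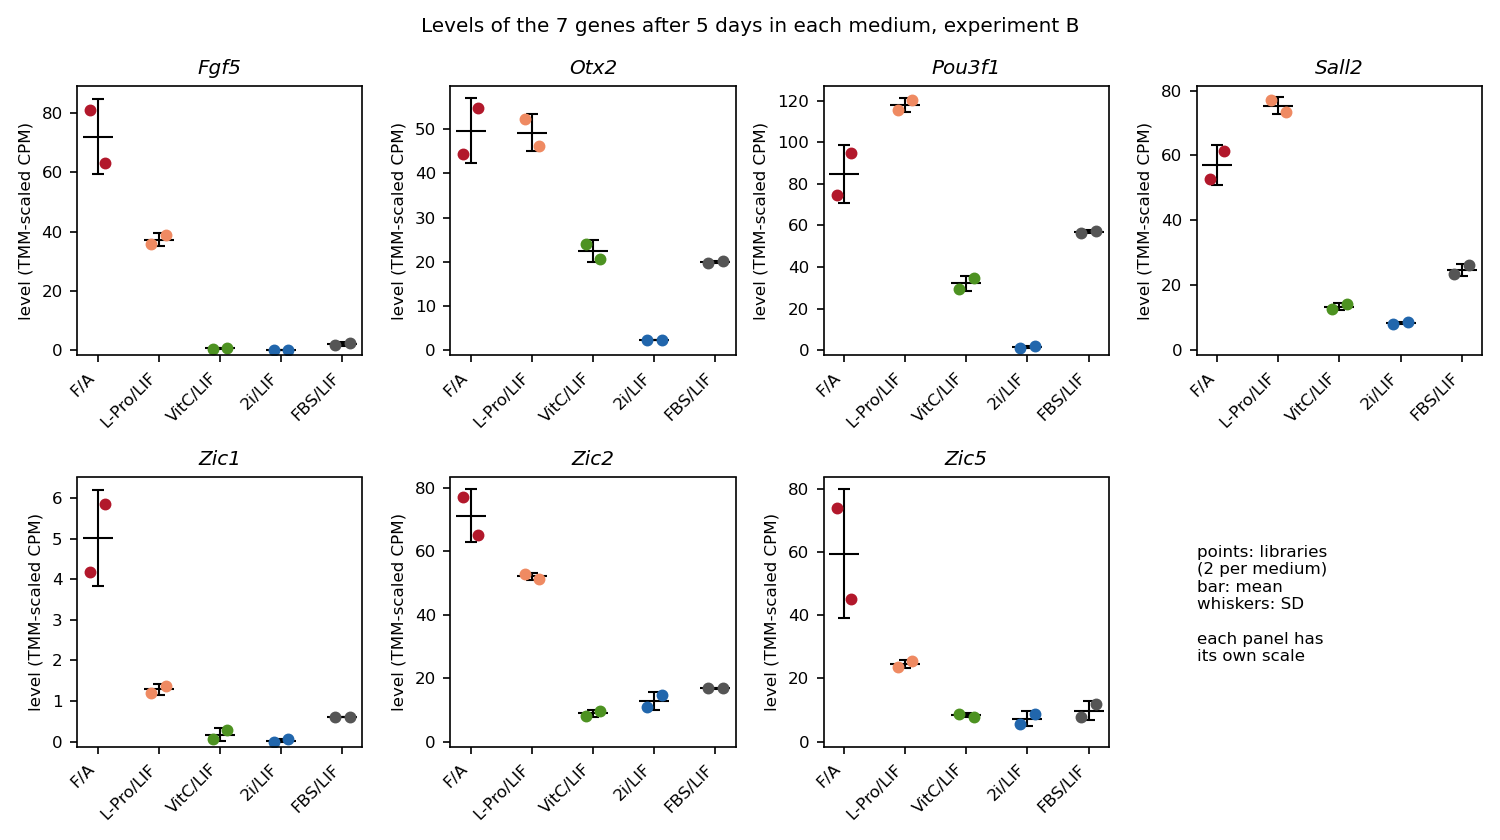
Level (TMM-scaled CPM, linear axes, 1 panel per gene) of the 7 genes in each library of experiment B, with media from F/A at the left to FBS/LIF at the right; points are libraries, bars means and whiskers SD over 2 libraries. F/A or L-Pro/LIF libraries are the highest in every panel, Fgf5 is at 0 in 2i/LIF, and Otx2, Pou3f1 and Sall2 have an intermediate level in VitC/LIF and FBS/LIF.

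Set against FBS/LIF, the 7 genes moved up in F/A and L-Pro/LIF and mostly down in 2i/LIF. F/A raised 7 of 7 genes, in a comparison where 24.4% of all genes tested were called higher and 22% lower, with a median log2 fold change of 2.07 against 0.05 over all genes. L-Pro/LIF raised 6 of 7, where 13.7% of all genes were called higher and 10.3% lower, with a median of 1.31 against 0.01. Zic1 was not called there on estimated counts, and on unique hits Zic1 was called and Pou3f1 was not, as given above. VitC/LIF raised 0 and lowered 1, Sall2, where 0.362% of genes were called higher and 0.312% lower. Of the 6 genes not called, Fgf5, Pou3f1, Zic1 and Zic2 had an unadjusted p below 0.05 in the edgeR test, as had 1800 of all 16033 genes tested. DESeq2 called 4 of the 7 genes, and 432 over all genes. In 2i/LIF 5 genes fell and 0 rose, where 17.9% of genes were called lower and 12.5% higher, with a median of -3.15 against -0.04; Zic2 and Zic5 were not called. These comparisons share the FBS/LIF libraries and are not independent of each other. F/A over FBS/LIF also holds the change from serum and LIF to N2B27 with no LIF named. This change cannot be told apart from the added factors.

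**Figure D2:**
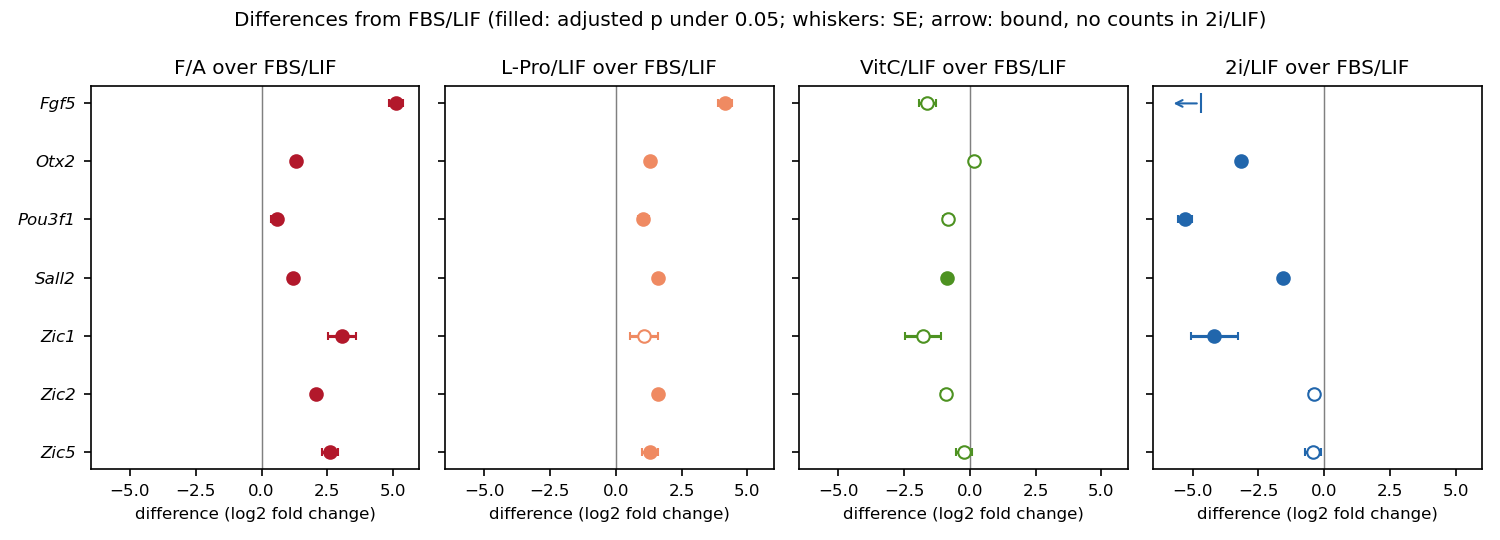
Log2 fold change of each gene in F/A, L-Pro/LIF, VitC/LIF and 2i/LIF over FBS/LIF; whiskers are SE, filled points were called at an adjusted p under 0.05, and the arrow is the bound for Fgf5, which had no counts in 2i/LIF. All 7 points of F/A are filled and to the right of 0, and the points of Zic2 and Zic5 in 2i/LIF are open and near 0.

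L-Pro/LIF and F/A were also set against VitC/LIF and 2i/LIF. L-Pro/LIF over VitC/LIF raised 7 of 7 genes (background 16.8% higher, 13% lower), from Otx2 at 1.14 (SE 0.14, adjusted p = 0.000474) to Fgf5 at 5.76 (SE 0.296, adjusted p = 1.3e-05), although the Zic1 call was lost without VitC/LIF replicate 1 (adjusted p from 0.0124 to 0.0675). F/A over VitC/LIF raised 7 of 7 (background 26.8% higher, 23.7% lower), with Zic2 at 2.99 (SE 0.175, adjusted p = 4.63e-06). Against 2i/LIF, F/A raised 7 of 7 (background 32% higher, 26.4% lower) and L-Pro/LIF raised 7 of 7 (background 25.3% higher, 19.3% lower); Fgf5 was at least 834-fold higher in F/A and at least 457-fold higher in L-Pro/LIF than the floor in 2i/LIF. Sall2 rose by 2.78 in F/A over 2i/LIF (SE 0.135, adjusted p = 1.02e-06) and by 3.18 in L-Pro/LIF over 2i/LIF (SE 0.136, adjusted p = 7.12e-07). In the comparisons with 2i/LIF the smallest change was that of Zic5 in L-Pro/LIF, at 1.75 (SE 0.308, adjusted p = 0.00181).

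VitC/LIF and 2i/LIF, the media without a rise over FBS/LIF, differed from each other in 4 genes. VitC/LIF was higher for Fgf5, Otx2, Pou3f1 and Sall2, where 14.9% of all genes were called higher, and lower for 0, where 9.62% were called lower. Fgf5 was at least 8.30-fold higher than the floor in 2i/LIF (24 counts against 0), Otx2 rose by 3.32 (SE 0.165, adjusted p = 8.84e-06), Pou3f1 by 4.46 (SE 0.258, adjusted p = 1.45e-05) and Sall2 by 0.69 (SE 0.131, adjusted p = 0.006). The Sall2 call was lost without 2i/LIF replicate 1 or VitC/LIF replicate 2 (adjusted p from 0.0232 to 0.0638). Zic1, Zic2 and Zic5 were not called between these media.

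F/A and L-Pro/LIF, the media in which most of these genes rose, differed in 3 of them. Fgf5, Zic1 and Zic5 were higher in F/A, by 0.95, 1.97 (SE 0.506, adjusted p = 0.0286) and 1.27 (SE 0.294, adjusted p = 0.0203), where 11.1% of all genes were called higher and 0 of the 7 genes were called lower, where 10.9% of all genes were. The Zic2 difference of 0.45 (SE 0.16, adjusted p = 0.0743) and the Pou3f1 difference of -0.47 (SE 0.202, adjusted p = 0.12) did not pass, and that of Pou3f1 was 0.20 (adjusted p = 0.717) on unique fragments. The 3 calls depended on single libraries. They were lost without F/A replicate 1, the shallow library, or without either L-Pro/LIF library. Without F/A replicate 2 the Zic1 call was lost, and Pou3f1 and Sall2 were called lower. Each omission leaves 1 library in a medium, and the number of calls over all genes also moved down or up with these omissions. The log2 fold change ran from 0.752 to 1.03 for Fgf5, from 1.6 to 2.17 for Zic1 and from 0.873 to 1.5 for Zic5. For Pou3f1 it ran from -0.749 to -0.322 and for Sall2 from -0.607 to -0.303, lowest without F/A replicate 2 in both. Against FBS/LIF, VitC/LIF and 2i/LIF all F/A calls of the 7 genes held without F/A replicate 1, Pou3f1 over FBS/LIF with the largest adjusted p of 0.0344.

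The order of media was therefore not the same for all genes. F/A led for Fgf5, Zic1 and Zic5 with a called step down to L-Pro/LIF. For Otx2 and Zic2 F/A also had the higher mean, and for Pou3f1 and Sall2 L-Pro/LIF did, with neighbours at the top that were not separated by the test. L-Pro/LIF, or F/A for Pou3f1 and Sall2, then stood a called step above the next medium except for Zic1. In the lower part of the order, FBS/LIF and VitC/LIF were not separated for Fgf5, Otx2, Pou3f1 and Zic1, and FBS/LIF, VitC/LIF and 2i/LIF were not separated for Zic2 and Zic5. The step to 2i/LIF at the bottom was called for Fgf5, Otx2, Pou3f1 and Sall2.

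Per transcript length, in fragments per kilobase scaled to depth (FPKM, from the deposited values), the genes can be set beside each other within a medium. In F/A, levels were 38.3 ± 6.43 FPKM for Zic2, 35.4 ± 7.92 for Fgf5, 33.7 ± 4.12 for Pou3f1, 29.1 ± 3.51 for Otx2, 14.8 ± 5.45 for Zic5 and 13.7 ± 0.708 for Sall2 (SD, n = 2). The top 4 overlap within their SD. In 2i/LIF, Zic2 was the most abundant per length at 5.87 ± 1.68 FPKM, followed by Sall2 at 1.72 ± 0.0736, Zic5 at 1.51 ± 0.462, Otx2 at 1.25 ± 0.197 and Pou3f1 at 0.491 ± 0.208 (SD, n = 2). In FBS/LIF, Pou3f1 had 19.7 ± 0.340 FPKM, Otx2 10.5 ± 0.0681, Zic2 7.62 ± 0.0176, Sall2 5.05 ± 0.399, Zic5 2.10 ± 0.676 and Fgf5 0.883 ± 0.290 (SD, n = 2). Fgf5 thus had the lowest mean of these 6 genes per length in FBS/LIF and the second highest in F/A. Zic1 is left out of these comparisons because its estimated length varied between libraries.

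Across the 10 libraries, log2 CPM of the genes correlated with one another to different degrees. The Pearson r was 0.98 for Otx2 with Pou3f1, 0.97 for Fgf5 with Sall2, 0.93 for Zic2 with Zic5 and 0.60 for Pou3f1 with Zic2, the lowest of the 21 pairs. Libraries of 1 medium share that medium, so these are descriptions of 5 media. By the same measure, the genes outside the set with the pattern most like Fgf5 were Pkia, an inhibitor of protein kinase A (r = 0.997, 35.1 CPM in F/A and 6.42 CPM in FBS/LIF), the matrix protein gene Efemp1 and Rhobtb3. For Otx2 they were the mitochondrial carrier gene Slc25a24, the actin-binding protein gene Dbn1 and the cilium gene Ttc21b. For Pou3f1 they were Atp10a, Fam83h and the tight junction gene Cldn6. For Sall2 they were the chemokine gene Cxcl12, the collagen-modifying enzyme gene Plod2 and Arl4c. For Zic1 they were Prkd1, Spty2d1 and E2f6, for Zic2 Slc22a23, Gas2l3 and Galnt10, and for Zic5 Mef2a, Mfap3 and Arl5b, with r from 0.977 to 0.991 for these 9.

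In experiment A, where each point is 1 library and no test is possible, the genes differed in when they were high. Fgf5 stood at 0.178 CPM at day 0 (6 counts), 78.0 CPM at F/A day 3 and 120.8 CPM at F/A day 5. Otx2 had 23.6, 26.3 and 43.0 CPM at the same points, so most of its gain came after day 3. Sall2 peaked in between, at 2.55, 155 and 39.3 CPM, and so did Zic1, at 0.178, 3.19 and 0.511 CPM. Zic2 had 32.4, 102.3 and 100.2 CPM and Zic5 54.4, 88.3 and 91.4 CPM, with day 5 levels within counting error of those at day 3. The 95% Poisson intervals, which cover counting error only, were narrow for all but the rare values, for example 151 to 159 CPM for Sall2 at F/A day 3.

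Counted past 2-fold, F/A day 3 over day 0 was higher for 4 of the 6 genes with at least 10 counts in either library (Fgf5, Sall2, Zic1 and Zic2), where 20.6% of genes with enough counts were (15.1% lower), and F/A day 5 over day 0 for the same 4, where 21.9% were (19.4% lower). F/A day 5 over F/A day 3 was lower for 2 of the 6, Sall2 by a ratio of 0.253 (95% counting interval of the log2 ratio from -2.07 to -1.89) and Zic1 with 17 counts at day 5 and 117 at day 3, where 14.3% of genes were lower and 10.8% higher. Beside these, the summed level of the 9 mesendoderm markers was 1071 CPM at F/A day 5 and 36.8 CPM at F/A day 3, none of them at 0, and that of 14 neuroectoderm markers 782.5 CPM at day 5 and 237 CPM at day 3, with Hes5, Olig3 and Dlx2 among those at 0 at day 5. Their part in the result was not tested. Sall2 at F/A day 5 in experiment B, 57.1 ± 6.08 CPM (SD, n = 2), is on the scale of that experiment alone.

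**Figure D3:**
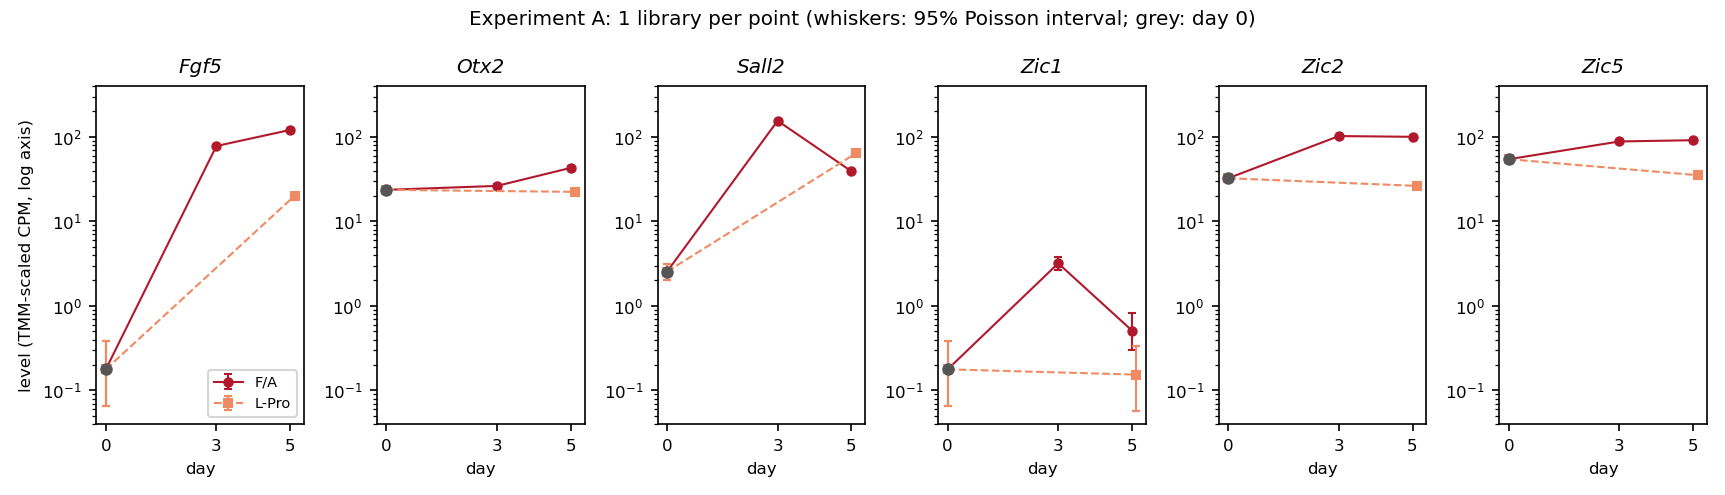
Level (TMM-scaled CPM, log axis) in the 4 single libraries of experiment A by day, for the 6 genes with counts; solid lines join the F/A series from day 0 to day 5, dashed lines join day 0 and L-Pro day 5, and whiskers are 95% Poisson intervals. Sall2 and Zic1 are highest at F/A day 3, Fgf5 and Otx2 at F/A day 5, and the L-Pro points of Zic2 and Zic5 lie below day 0.

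With L-proline in experiment A, Fgf5 and Sall2 were the genes higher past 2-fold. L-Pro day 5 had 20.0 CPM of Fgf5 against 0.178 CPM at day 0, and 63.7 CPM of Sall2 against 2.55 CPM, a log2 ratio of 4.64. Otx2 had 22.4 CPM at L-Pro day 5 against 23.6 CPM at day 0, and Zic1 had 6 counts in each. Zic2 and Zic5 were lower but within 2-fold, at 26.3 CPM against 32.4 CPM and 35.2 CPM against 54.4 CPM. Past 2-fold, L-Pro day 5 over day 0 was thus higher for 2 of the 5 genes with at least 10 counts in either library, where 21.7% of genes were, and lower for 0, where 17.8% were. Over F/A day 5, L-Pro day 5 was lower for 4 of 6 (Fgf5, Zic1, Zic2 and Zic5), where 8% of genes were lower and 10.8% higher, and Sall2 was higher by a ratio of 1.62, within 2-fold.

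Differences from cells with vitamin C can be set side by side between experiments, whose media, vitamin C dose, extraction and cell population differed. The reference differed too: VitC/LIF cells at day 5 in experiment B and untreated cells at day 0 in experiment A. These differences thus hold the change in vitamin C, and in experiment A also the days in culture. For F/A they also hold the change from serum and LIF to N2B27 with no LIF named. For F/A, Fgf5, Otx2, Sall2, Zic1, Zic2 and Zic5 lay above the cells with vitamin C in both: Sall2 by 2.09 (SE 0.131, adjusted p = 6.74e-06) at day 5 over VitC/LIF in experiment B and by 3.95 over day 0 in experiment A, and Zic5 by 2.82 (SE 0.316, adjusted p = 0.000174) and 0.75. For L-proline, Fgf5 and Sall2 were higher in both, Sall2 by 2.49 (SE 0.132, adjusted p = 6.71e-06) and 4.64, whereas Zic2 was 2.54 higher in experiment B (SE 0.172, adjusted p = 2.19e-05) but -0.30 in experiment A, and Zic5 1.55 (SE 0.305, adjusted p = 0.00539) but -0.63. The level of Zic5 in the vitamin C cells, 8.38 ± 0.642 CPM (SD, n = 2) in VitC/LIF and 54.4 CPM at day 0, and that of Zic2, 8.94 ± 1.09 CPM (SD, n = 2) and 32.4 CPM, come from separately scaled tables.

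**Figure D4:**
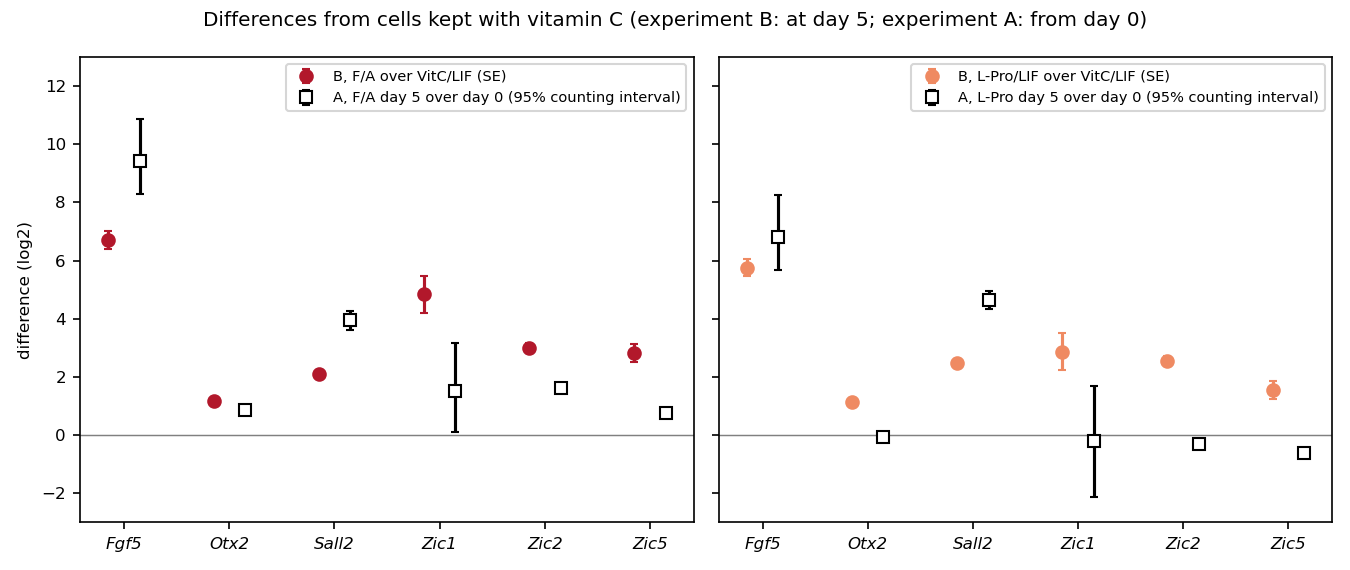
Log2 difference from cells kept with vitamin C, for F/A (left panel) and L-proline (right panel); filled circles are experiment B over VitC/LIF with SE, open squares are experiment A at day 5 over day 0 with 95% counting intervals. Fgf5 and Sall2 lie above 0 in all 4 sets, while in experiment A the L-proline squares of Zic2 and Zic5 lie below 0 at -0.30 and -0.63.

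Paralogs of the 7 genes were tested in the same way. Of 12 paralogs, 11 had an identifier and 7 could be tested. In L-Pro/LIF over FBS/LIF 0 of the 7 rose and 4 fell, where 13.7% of all genes were called higher and 10.3% lower. Fgf4, an FGF of the naive state, fell to 29.6 ± 0.221 CPM in L-Pro/LIF, against 175 ± 14.4 CPM in FBS/LIF (SD, n = 2; log2 fold change -2.57, adjusted p = 5.32e-06). Sall1 (-1.62, adjusted p = 0.00248) and Sall3 (-1.95, adjusted p = 0.0224) fell too. In F/A over FBS/LIF 2 of the 7 rose and 1 fell, where 24.4% of all genes were called higher and 22% lower. There Sall3 rose by 2.71 (adjusted p = 0.00212) and Fgf4 fell by 4.28 (adjusted p = 1.31e-07). In L-Pro/LIF over FBS/LIF, Sall4, needed in ESCs, was -0.62 (adjusted p = 0.0865) and Pou3f3 -0.33 (adjusted p = 0.873).

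Other genes known from the primed or formative epiblast were more mixed. Of 17, all tested, 9 rose and 3 fell in L-Pro/LIF over FBS/LIF (median 0.47), where 13.7% of all genes were called higher and 10.3% lower. In F/A over FBS/LIF 7 rose and 6 fell (median 0.24), where 24.4% were called higher and 22% lower. In 2i/LIF over FBS/LIF 2 rose and 11 fell (median -2.06), where 12.5% were called higher and 17.9% lower. The SoxB1 factor gene Sox3 rose by 3.6 in F/A over FBS/LIF (adjusted p = 2.62e-05) and by 3.03 in L-Pro/LIF over FBS/LIF (adjusted p = 0.000138), and Wnt8a rose by 3.01 (adjusted p = 3.66e-05) and 2.94 (adjusted p = 9.38e-05) in the same comparisons. Tcf15, a factor of cells leaving the naive state, went the other way, at 2.16 ± 0.904 CPM in F/A and 15.1 ± 1.44 CPM in L-Pro/LIF, against 45.5 ± 3.28 CPM in FBS/LIF (SD, n = 2; adjusted p = 4.89e-06 and 0.000748). Dnmt3b, whose product sets new DNA methylation, rose by 0.58 in L-Pro/LIF (adjusted p = 0.0148) and fell by 2.27 in 2i/LIF (adjusted p = 1.3e-05). In F/A it was not called (0.242, adjusted p = 0.165). Dnmt3a fell by 2.77 in 2i/LIF (adjusted p = 5.43e-05) and by 0.845 in F/A (adjusted p = 0.0131), and was not called in L-Pro/LIF (-0.235, adjusted p = 0.479).

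FGF receptors and feedback genes of the ERK pathway mostly fell in 2i/LIF. Of 13, all tested, 8 fell and 1 rose in 2i/LIF over FBS/LIF (median -1.46 against -0.04 over all genes), where 17.9% of all genes were called lower and 12.5% higher. In L-Pro/LIF over FBS/LIF 3 rose and 3 fell (median -0.08), where 13.7% were called higher and 10.3% lower. In F/A over FBS/LIF 4 rose and 4 fell (median -0.19), where 24.4% were called higher and 22% lower. Dusp4, an ERK phosphatase, averaged 74.4 ± 5.71 CPM in F/A, 47.3 ± 1.12 CPM in L-Pro/LIF and 0.875 ± 0.189 CPM in 2i/LIF, against 15.1 ± 1.00 CPM in FBS/LIF (SD, n = 2 each). Each of these 3 differences of Dusp4 from FBS/LIF was called (log2 fold changes 2.30, 1.64 and -4.11), with the largest adjusted p, 8.69e-05, in L-Pro/LIF. Spry4, an inhibitor of the pathway, fell in all 3 media, with log2 fold changes of -1.32 in F/A (adjusted p = 0.0209), -1.42 in L-Pro/LIF (adjusted p = 0.0253) and -3.53 in 2i/LIF (adjusted p = 0.000351).

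Markers of other states changed too, in directions that differed between the lists. Over FBS/LIF, 24.4% of all genes were called higher and 22% lower in F/A, 13.7% and 10.3% in L-Pro/LIF, and 12.5% and 17.9% in 2i/LIF. Of 14 naive markers 13 fell and 0 rose in F/A over FBS/LIF, and likewise in L-Pro/LIF over FBS/LIF, while 11 rose and 1 fell in 2i/LIF over FBS/LIF; their summed level was 81.3 to 92.1 CPM in F/A, 254 to 264 CPM in L-Pro/LIF, 2875 to 2990 CPM in 2i/LIF and 1412 to 1464 CPM in FBS/LIF. All 9 mesendoderm markers rose in F/A over FBS/LIF, with a summed level of 499 to 504 CPM in F/A and 58.8 to 69.4 CPM in L-Pro/LIF against 4.58 to 6.42 CPM in FBS/LIF, where Cer1 was at 0. Of 15 neuroectoderm markers, 14 with an identifier and 8 tested, 1 rose and 3 fell in F/A over FBS/LIF (median -0.55), and 1 rose and 2 fell in L-Pro/LIF over FBS/LIF (median -0.55). The gene that rose was Nes in both, which encodes an intermediate filament, at 389 ± 103 CPM in F/A and 293 ± 22 CPM in L-Pro/LIF against 75 ± 0.829 CPM in FBS/LIF (SD, n = 2). Gbx2 and Tubb3 fell in both. Nes was the most abundant of the list in F/A and L-Pro/LIF, and the summed level of the list was 364 to 514 CPM in F/A and 344 to 376 CPM in L-Pro/LIF against 225 to 239.5 CPM in FBS/LIF, and Neurog2, Olig3 and Dlx2 were at 0 in F/A. Of 10 fibroblast markers, 8 tested, 6 rose in F/A and 5 in L-Pro/LIF over FBS/LIF, with summed levels of 36.2 to 47.9 CPM, 37.0 to 38.4 CPM and, in FBS/LIF, 24.7 to 25.3 CPM with Lum and Postn at 0. Fbln1 alone averaged 18.7 CPM in F/A, 19.8 CPM in L-Pro/LIF and 19.5 CPM in FBS/LIF, and was not called (adjusted p = 0.719 and 0.947). Pdgfra averaged 9.42 CPM in F/A against 1.82 CPM in FBS/LIF. The part of these cell states in the values of the 7 genes was not tested.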

How the data were processed

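RNA sequencing libraries of mouse ESCs were grouped by their titles. Per the submitters' processing notes, CASAVA, TopHat2 2.0.13, Bowtie, HTSeq 0.6.1p1, DESeq and build mm9 were used; which tool made which file and the strand setting are not given in the sources used here. The authors deposited raw gene counts for experiment A and a table of normalized counts on no stated scale, treated as a score and used only for comparison. For experiment B, per the file headers, the deposited values are the natural log of a level read as FPKM, unique hit counts and an effective length. Estimated counts were rebuilt from these deposited values and rounded. Genes were filtered (filterByExpr), scaled by TMM and tested with edgeR 4.0.16 (R 4.3.3) in 1 model of 10 libraries, with Benjamini-Hochberg adjustment over 16033 genes, a threshold of 0.05 and 5 residual degrees of freedom. SE was derived as the size of the log2 fold change divided by sqrt(F). Experiment A was not tested; genes with at least 10 counts in the higher of the 2 libraries compared were counted past 2-fold. Intervals are at 95% and bounds use 3 counts; both cover counting error only. Likeness is Pearson's r of log2 CPM (prior count 2) to genes of at least 4 log2 CPM in the highest medium, 3 per gene. Up to 4 called genes with the largest change in L-Pro/LIF over FBS/LIF and up to 2 other abundant genes of each list could be named. Alternatives were DESeq2 1.42.0 and its size factors, no filter, unique hits, limma 3.58.1 on log2(FPKM + 0.1) and log2(FPKM + 1), a replicate block, only the 2 media compared, and single libraries left out. The script was tested on simulated data. The 7 genes and the lists were chosen with earlier results of these data known. In all, 5 columns with per-sample values were not used. Start windows (RefSeq) and gene positions (GENCODE) are of GRCm38, not the files' build, and only describe genes. Some genes of the lists are not reported here.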

Additional observations from a re-analysis of the deposited data

Results flagged for a closer look

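Zic2 and Zic5 had differences of opposite sign with L-proline in the 2 experiments, and those of experiment A were within 2-fold. Zic2 had a log2 ratio of -0.301 in L-Pro day 5 over day 0 of experiment A (95% counting interval -0.425 to -0.177), while each L-Pro/LIF library of experiment B lay above each VitC/LIF library, by 2.39 to 2.69. Zic5 had a log2 ratio of -0.627 in experiment A (95% counting interval -0.729 to -0.526), against 1.41 to 1.68 in experiment B. The difference between the experiments was not tested, since experiment A has 1 library per group. Its intervals cover counting error only. Libraries of 1 medium in experiment B could differ by more than counting error, with Zic5 at 7.67 and 12.1 CPM in FBS/LIF. A fall in experiment A is therefore not established. The experiments also differ in reference (day 0 in experiment A, VitC/LIF at day 5 in experiment B), vitamin C dose, extraction and cell population, and these cannot be told apart.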

How the results depend on the processing

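Over the 7 genes and the 10 comparisons of media, 833 values kept direction and side of the threshold under an alternative, 46 lost the call, 20 gained it and 9 changed sign. The 9 were small or rare values: Zic5 in VitC/LIF over FBS/LIF (-0.52 to 0.127 without single libraries, the positive value without FBS/LIF replicate 2) and in VitC/LIF over 2i/LIF (-0.086 to 0.554, the negative value without 2i/LIF replicate 1), Otx2 in F/A over L-Pro/LIF (-0.0297 with no filter, -0.0846 without L-Pro/LIF replicate 2, -0.241 without F/A replicate 2, 0.148 without F/A replicate 1), Pou3f1 in F/A over L-Pro/LIF (0.201 on unique hits), and Zic1 in VitC/LIF over 2i/LIF (-0.245 with limma on log2(FPKM + 0.1), with or without the filter, and -0.0516 on log2(FPKM + 1)). The count of the 7 genes called in VitC/LIF over FBS/LIF, 1, was 4 with no filter, 4 with DESeq2, 2 on unique hits, 0 with limma on log2(FPKM + 0.1) and 0 with only the 2 media compared. Without any single library of these media the Sall2 call was lost, as were most calls over all genes. In F/A over L-Pro/LIF the count of 3 was 5 with DESeq2, 0 with limma and no filter, and 1 with only the 2 media. It also moved without single libraries, as did the number of calls over all genes. In VitC/LIF over 2i/LIF the count of 4 was 2 with limma on log2(FPKM + 1). Without single libraries the Sall2 call could be lost, and calls over all genes were lost too. Over all genes, 108 calls in VitC/LIF over FBS/LIF became 432 with DESeq2, 243 on unique hits and 61 with only the 2 media, and calls in F/A over L-Pro/LIF fell to 729, against 3529, with only the 2 media. Replicate numbers were not taken as pairs, since deviations of same-numbered libraries correlated at -0.134 between FBS/LIF and F/A and at -0.014 between 2i/LIF and F/A; the other 8 pairs of media ran from 0.105 to 0.684, and the 6 among the media with LIF from 0.269 to 0.684. In replicate 2 of all 5 media, effective lengths also exceeded those in FBS/LIF replicate 1 by a median of 39.4 to 54.1 bases over the longer genes, and the common biological coefficient of variation was 0.189 with the block and 0.238 without it. With the replicate block, Sall2 was gained in F/A over L-Pro/LIF (-0.404, adjusted p = 0.0485, in a range of 0.0101 to 0.316 over its alternatives), giving 4 genes, and the counts of the 7 genes in the other 9 comparisons were the same. The causes were not tested. With 2 libraries per medium, depth limits the rare values: Zic1 had 6, 1 and 26 counts over VitC/LIF, 2i/LIF and FBS/LIF, and Fgf5 24 and 0 over VitC/LIF and 2i/LIF.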
